A study of Macaca mulatta with 12 samples.

Results

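The 9 genes described here are 5 transcription factors that govern endoderm (SOX17, FOXA2, FOXA1, GATA4 and GATA6) and 4 secreted products of yolk sac and fetal liver (AFP, APOA1, APOA2 and FGA). They were chosen by name, as every probe set whose platform annotation carries one of these symbols alone, which gave 16 of the 52766 probe sets on the rhesus macaque array and 9 of 12993 named genes. These genes and the lists used below were picked with earlier results of these data known. Their counts of calls are therefore descriptions and not independent of the data. SOX17 had 2 probe sets, GATA4, AFP and FGA had 3 each, and the other 5 genes had 1 each. Levels are log2 expression values, so a difference of 1 is a 2-fold difference, and the level of one gene cannot be set against that of another because each probe set binds with its own strength.

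Total RNA from 4 rhesus macaque cell populations was measured, each on 3 single-sample arrays named A, B and C. ORMES-9 and rPESC-2 are female embryonic stem (ES) cell lines of parthenogenetic origin, in which an unfertilised egg was made to develop. The labels describe ORMES-9 as homozygous and rPESC-2 as heterozygous. For ORMES-9 the source field names a fertilised embryo instead, and the line was analysed as a parthenote after its sample descriptions and the series design. ORMES-22 is a female ES line from an embryo fertilised in vitro and is the biparental control. The somatic control was fibroblasts from the back skin of an adult male aged 9 years. ES cells grew on inactivated mouse embryonic fibroblasts, and RNA was taken from undifferentiated colonies. Passage numbers of arrays A, B and C were 13, 14 and 16 in ORMES-9, then 16, 10 and 16 in rPESC-2, then 18, 21 and 19 in ORMES-22. Each group is thus 1 line or, as far as the labels say, cells of 1 animal. The p-values therefore rest on variation among the arrays of single lines, which may be partly technical, and parental origin cannot be told apart from any other property of the single biparental line.

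Endoderm is the innermost germ layer, from which liver, pancreas, gut and lung arise. SOX17, GATA4 and GATA6 act early, in the primitive endoderm that will line the yolk sac as well as in the definitive endoderm of the embryo. FOXA factors open chromatin so that endodermal and then hepatic genes can be used, and AFP, apolipoproteins and fibrinogen are among the proteins that yolk sac and fetal liver later secrete.

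The array medians lay between 5.012 and 5.098. The ORMES-22 arrays were the least alike, with each array's lowest correlation inside its group between 0.9844 and 0.9855 across probe sets, against 0.9937 to 0.9963 in the other groups. Leaving out ORMES-22 replicate A changed the counts of calls against ORMES-22 most, and the main differences are therefore also given without it. Actin 3′ minus 5′ signal, a sign of RNA quality, was 0.88, 0.32 and 0.38 on ORMES-22 arrays A, B and C. It was 0.35, 0.70 and 0.86 on the ORMES-9 arrays and 0.36, 0.49 and 0.53 on the rPESC-2 arrays. Its part in the differences between ES lines was not tested. Means of the hybridisation controls, which are added in fixed amounts, were 10.54, 10.18 and 9.82 on the ORMES-9 arrays, 10.19, 10.41 and 10.19 on the rPESC-2 arrays, 10.58, 10.23 and 9.79 on the ORMES-22 arrays and 9.90, 9.98 and 9.88 on the fibroblast arrays. Of 13 pluripotency genes measured, 10 were called higher in each ES line than in fibroblasts and 1 lower, the probe set annotated as NANOG, a core pluripotency factor. POU5F1, another core factor of pluripotency, lay between 12.62 and 13.24 on the 9 ES arrays and between 4.68 and 5.26 in fibroblasts. All 12 arrays matched their labelled cell class by POU5F1, although the NANOG probe set did not follow it, and that gene was singled out after its values were seen.

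Among the regulators, SOX17, an early factor of primitive and definitive endoderm, gave 7.55, 6.85 and 8.25 in ORMES-9, 7.87, 8.13 and 8.30 in rPESC-2, 5.00, 4.62 and 5.93 in ORMES-22 and 4.27, 4.00 and 4.33 in fibroblasts at its brighter probe set. Every array of a parthenogenetic line lay above every ORMES-22 array, and all ES arrays lay above the fibroblasts. The dimmer SOX17 probe set gave 5.13, 4.85 and 5.45 in ORMES-9, 4.88, 5.25 and 5.21 in rPESC-2, 4.17, 4.31 and 4.76 in ORMES-22 and 3.79, 3.90 and 4.03 in fibroblasts. It placed the groups in the same order apart from the 2 parthenogenetic lines, and across the 12 arrays the probe sets correlated at 0.96, a description over arrays that differ mainly by line. Its distances were compressed, and its signal passed the background level on 8 of 12 arrays. That level, 4.26, is the value below which 90% of 42 probe sets for bacterial transcripts lay.

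FOXA2, which opens chromatin in definitive endoderm and its organs, gave 7.90, 7.39 and 7.67 in ORMES-9, 6.83, 7.35 and 7.50 in rPESC-2, 5.14, 5.42 and 5.42 in ORMES-22 and 4.68, 4.45 and 4.86 in fibroblasts. The ORMES-22 arrays varied least (SD 0.16, against 0.26 in ORMES-9 and 0.35 in rPESC-2) and did not overlap with either parthenogenetic line.

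FOXA1, its close relative in liver and other epithelia, was near background. It gave 4.32, 4.00 and 4.58 in ORMES-9, 4.39, 4.71 and 4.75 in rPESC-2, 3.97, 4.15 and 4.28 in ORMES-22 and 3.87, 4.01 and 3.86 in fibroblasts. Only 6 of 12 arrays passed the background level, 5 of them from the parthenogenetic lines, and its probes are shared between transcripts, so its differences rest on little signal.

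GATA6, which acts at the top of the primitive endoderm programme and is also used in mesoderm, was highest in fibroblasts. It gave 8.12, 7.76 and 8.33 in ORMES-9, 8.86, 8.55 and 8.75 in rPESC-2, 5.74, 5.20 and 6.86 in ORMES-22 and 9.37, 9.51 and 9.24 in fibroblasts. No 2 of the 4 groups overlapped. The order was fibroblasts, rPESC-2, ORMES-9 and ORMES-22, and neither step among the top 3 neighbours was called, with rPESC-2 minus fibroblasts at −0.65 (95% interval −1.34 to 0.03, limma adjusted p = 0.1) and ORMES-9 minus rPESC-2 at −0.65 (−1.33 to 0.04, adjusted p = 0.35).

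GATA4, the partner of GATA6 in endoderm and heart, moved much less. Its brightest probe set gave 6.36, 6.28 and 6.58 in ORMES-9, 6.56, 6.37 and 6.50 in rPESC-2, 5.96, 6.40 and 6.23 in ORMES-22 and 5.47, 5.64 and 5.81 in fibroblasts. The ES lines overlapped with each other, and all of them lay above the fibroblasts. The middle probe set gave 5.47, 5.49 and 6.70 in ORMES-9, 5.87, 5.52 and 5.70 in rPESC-2, 4.98, 4.82 and 4.80 in ORMES-22 and 4.21, 4.25 and 4.38 in fibroblasts, so that ORMES-9 replicate C alone stood more than 1 unit above the other arrays of its line. The dimmest GATA4 probe set stayed below the background level on all 12 arrays. Over the 9 ES arrays the brightest probe set correlated at 0.70 with the middle and at 0.72 with the dimmest. The middle and dimmest correlated at 0.11, a value that rests on a probe set under background. Only the middle probe set separated both parthenogenetic lines from ORMES-22 with no overlap of the arrays.

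**Figure D1:**
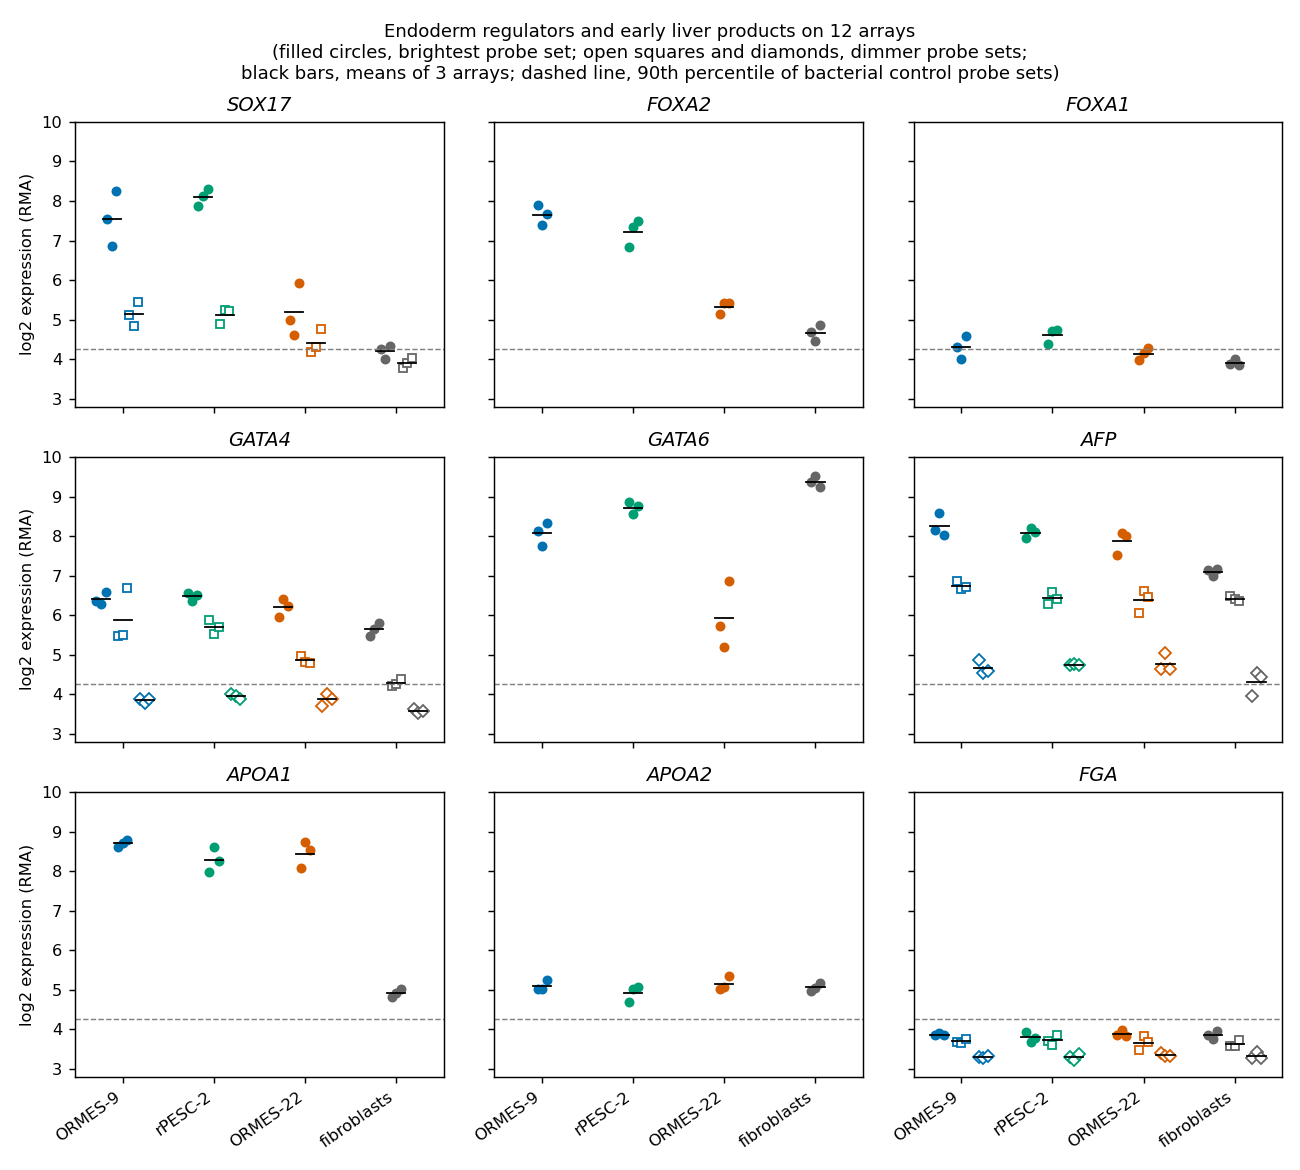
Log2 expression (vertical axis) of every probe set of the 9 genes on the 12 arrays, by group (horizontal axis), with 1 point per array, black bars for the means of 3 arrays and a dashed line at the background level of 4.26. SOX17, FOXA2 and GATA6 separate ORMES-9 and rPESC-2 from ORMES-22, APOA1 separates all ES lines from fibroblasts, and FGA lies under the dashed line on every array.

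Of the secreted products, AFP, the main plasma protein of the fetus, gave 8.15, 8.59 and 8.03 in ORMES-9, 7.95, 8.21 and 8.10 in rPESC-2, 7.51, 8.08 and 8.01 in ORMES-22 and 7.15, 7.00 and 7.16 in fibroblasts at its brightest probe set. The ES lines overlapped, with ORMES-22 replicate A the lowest of the 9 ES arrays. The middle AFP probe set lay between 6.05 and 6.86 on all 12 arrays and the dimmest between 3.96 and 5.04. These probe sets disagree about fibroblasts: the middle one gave 6.41 ± 0.07 there, inside the range of the ES arrays, while the brightest gave 7.11 ± 0.09, below all of them (SD, n = 3).

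APOA1, the chief protein of high-density lipoprotein, gave 8.61, 8.72 and 8.79 in ORMES-9, 7.99, 8.62 and 8.27 in rPESC-2, 8.07, 8.73 and 8.54 in ORMES-22 and 4.83, 4.92 and 5.02 in fibroblasts. The ES arrays overlapped across lines, and the lowest of them was 7.99, far above every fibroblast array. APOA2, a second protein of the same particle, lay between 4.70 and 5.36 on all 12 arrays, with all 4 groups overlapping. FGA, the alpha chain of fibrinogen, did not exceed 3.99 on any array at any of its 3 probe sets and was not above background anywhere. The APOA1 and APOA2 probe sets and 1 FGA probe set are of a type whose probes match more than 1 transcript, and a share of other transcripts in their signal was not tested.

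The first comparison asked which genes differ between each parthenogenetic line and the biparental line. SOX17, FOXA2 and GATA6 rose in both lines, and the secreted products did not pass the test. A probe set was called at a limma adjusted p under 0.05 over all 52766 probe sets with at least a 2-fold difference. In rPESC-2, 3 of 16 probe sets were called higher and 0 lower than in ORMES-22, where 0.769% of all probe sets were called higher and 0.474% lower. In ORMES-9, 4 of 16 were called higher and 0 lower than in ORMES-22, against 0.946% higher and 0.629% lower of all. In each of these comparisons 6 of 16 probe sets were higher with no overlap of the arrays, against 9.36% of all probe sets for rPESC-2 and 10.2% for ORMES-9. At an unadjusted limma p under 0.05 there were 7 of 16 in each comparison. With 1 probe set per gene, 3398 of 12993 genes passed that limit in rPESC-2 and 3179 in ORMES-9. The median difference over the 16 was 0.15 in rPESC-2 and 0.23 in ORMES-9, with medians of all probe sets at −0.02 and −0.01. Both comparisons use the same 3 ORMES-22 arrays and are not independent of each other. In such bulk RNA, more cells of a type and more RNA per cell cannot be told apart.

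SOX17 was 7.54-fold higher in rPESC-2 than in ORMES-22 at its brighter probe set (2.92, SE 0.35, adjusted p = 0.00053) and 5.16-fold higher in ORMES-9 (2.37, SE 0.35, adjusted p = 0.0014). The dimmer probe set differed by 0.70 and 0.73, under 2-fold, with adjusted p = 0.043 in rPESC-2 and 0.03 in ORMES-9, so it shared the direction at a smaller distance. FOXA2 was 3.72-fold higher in rPESC-2 (1.89, SE 0.18, adjusted p = 9.9e-05) and 5.02-fold higher in ORMES-9 (2.33, SE 0.18, adjusted p = 1.2e-05). GATA6 was 6.88-fold higher in rPESC-2 (2.78, SE 0.31, adjusted p = 0.00038) and 4.40-fold higher in ORMES-9 (2.14, SE 0.31, adjusted p = 0.0015). Without ORMES-22 replicate A these 3 probe sets kept their calls in both lines, at 2.82 and 2.27 for SOX17, 1.80 and 2.23 for FOXA2 and 2.68 and 2.04 for GATA6, for rPESC-2 and ORMES-9 in that order. When only the 6 arrays of ORMES-9 and ORMES-22 were fitted, SOX17 and GATA6 lost their calls at unchanged differences (limma adjusted p = 0.054 and 0.057), and over the 20 alternatives run the adjusted p ranged from 0.00029 to 0.054 for SOX17 and from 1.3e-05 to 0.057 for GATA6.

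GATA4 gave the fourth call in ORMES-9. Its middle probe set differed by 1.01 from ORMES-22 (SE 0.26, adjusted p = 0.038). The call was lost in 11 of 20 alternatives, with adjusted p from 0.0095 to 0.22. The difference was 0.61 without ORMES-9 replicate C, and the brightest probe set differed by only 0.21 (95% interval −0.07 to 0.49, adjusted p = 0.43). In rPESC-2 the middle probe set differed by 0.83 (0.27 to 1.39, adjusted p = 0.091) and the brightest by 0.28 (0.01 to 0.56, adjusted p = 0.23).

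FOXA1 differed by 0.48 in rPESC-2 (95% interval 0.17 to 0.80, adjusted p = 0.082) and by 0.17 in ORMES-9 (−0.15 to 0.48, adjusted p = 0.6). APOA1 differed by −0.16 in rPESC-2 (−0.53 to 0.22) and by 0.26 in ORMES-9 (−0.12 to 0.63). The brightest AFP probe set differed by 0.22 (−0.14 to 0.58) and 0.39 (0.03 to 0.75) in the same order, with adjusted p = 0.49 and 0.23. All these intervals end below 1, so a 2-fold increase in the array signal of FOXA1, APOA1 or the AFP probe sets lay outside them. For FOXA1, which was near background, and the dimmest AFP probe set this does not bound the change in RNA. A dim probe set can compress a difference, as the dimmer one of SOX17 did. The intervals of the brighter SOX17 probe set, FOXA2 and GATA6 began at 1.45 or above. Those of the dimmer SOX17 probe set began at 0.32 in rPESC-2 and 0.35 in ORMES-9.

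**Figure D2:**
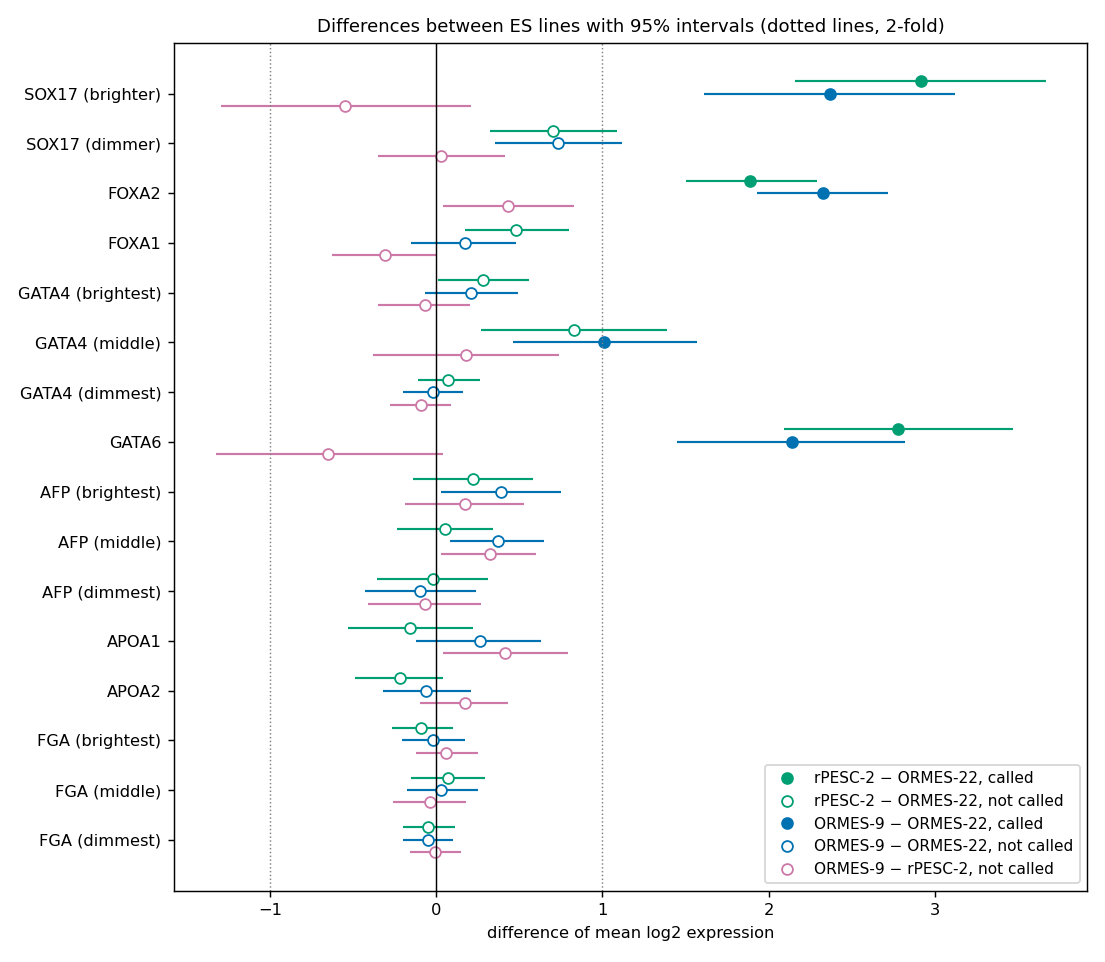
Difference of mean log2 expression (horizontal axis) between ES lines for each of the 16 probe sets, with 95% intervals from limma. Filled points were called and open points were not, and dotted lines mark 2-fold. The brighter SOX17 probe set, FOXA2 and GATA6 lie beyond the 2-fold line in both parthenogenetic lines, while APOA1, APOA2, AFP and FGA lie inside it.

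Between the 2 parthenogenetic lines, 0 of 16 probe sets were called in limma, against 0.544% called higher and 0.688% lower in ORMES-9 of all probe sets. At an unadjusted p under 0.05 there were 3, FOXA2 (0.43, 95% interval 0.04 to 0.83, adjusted p = 0.26), the middle AFP probe set (0.32, 0.03 to 0.60, adjusted p = 0.25) and APOA1 (0.41, 0.04 to 0.79, adjusted p = 0.25). With 1 probe set per gene, 2830 of 12993 genes passed that unadjusted limit. The brighter SOX17 probe set differed by −0.55 (−1.30 to 0.21), so a 2-fold lower level in ORMES-9 lay inside its interval, as it did for GATA6 (−0.65, −1.33 to 0.04). ORMES-9 replicate B was the lowest array of its line for SOX17, FOXA2 and GATA6 alike.

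SOX17 and GATA6 varied together over the ES arrays and, in ORMES-9 and ORMES-22, within a line. Over the 9 ES arrays they correlated at 0.98, and at 0.83 after the mean of each line was taken away, given as a description of 9 arrays from 3 lines. In ORMES-22 both were highest in replicate C and lowest in replicate B, and in ORMES-9 both were highest in replicate C and lowest in replicate B. In rPESC-2 they ran apart, with replicate A the lowest for SOX17 (7.87) and the highest for GATA6 (8.86). Some genes of the lists used below, endodermal and other, were also highest on the C arrays of both ORMES-9 and ORMES-22, as were 10.9% of all genes. By list these were 5 of 11 extraembryonic endoderm genes, 4 of 18 other endoderm regulators and 4 of 25 other liver plasma protein genes. They were also 6 of 12 trophoblast, 4 of 12 mesoderm, 3 of 15 fibroblast, 1 of 5 neuroectoderm and 0 of 13 pluripotency genes. Of these, named after their values were seen, GATA3, a trophoblast factor, gave 5.59, 5.92 and 7.94 in ORMES-9 and 5.56, 6.19 and 8.02 in ORMES-22. MSX2, a mesoderm factor, gave 7.61, 7.53 and 9.0 in ORMES-9 and 8.05, 8.89 and 10.15 in ORMES-22. The C arrays of these 2 lines also had the lowest hybridisation controls of their lines, and the part of these markers and controls in the result was not tested. SOX17 and FOXA2 correlated at 0.89, but at 0.43 within lines, and SOX17 and APOA1 at 0.01. The within-line value of SOX17 and GATA6 was not particular to that pair. Within lines FOXA1, which was near background, correlated at 0.84 with APOA2 and at 0.81 with SOX17. SOX17 correlated there at 0.77 with APOA2 and at −0.33 with AFP. AFP and APOA1 correlated at 0.64 over the same arrays and at 0.68 within lines, with replicate A lowest for both in ORMES-22 and in rPESC-2.

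Of 1387 probe sets of other genes that varied over the ES arrays with an SD of at least 0.5, those most like SOX17 were GATA6 (r = 0.979), CXCR4 (0.969) and SLC26A2 (0.968). For GATA6 they were SOX17, SLC26A2 (0.979) and CXCR4 (0.977). CXCR4, the chemokine receptor used to sort definitive endoderm, gave 7.88, 7.36 and 7.92 in ORMES-9, 7.93, 7.57 and 8.13 in rPESC-2, 6.06, 5.92 and 6.95 in ORMES-22 and 5.03, 4.71 and 4.64 in fibroblasts. Like SOX17 and GATA6 it was highest in replicate C of ORMES-22. With the fibroblasts included, CXCR4 kept its likeness to SOX17 (0.962) but not to GATA6 (−0.072), and that of SOX17 and GATA6 was 0.144, with GATA6 high and SOX17 low in fibroblasts.

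FOXA2 had other neighbours. They were C19H19orf12 (r = 0.978), THEMIS2 (0.972), a signalling adaptor of immune cells, and MGMT (0.97), a DNA repair enzyme. The brightest GATA4 probe set, which varied little (SD 0.19), was most like EOMES (0.935), a T-box factor that starts definitive endoderm, PRDM1 (0.803) and BMP2 (0.801). EOMES gave 8.45, 7.91 and 8.89 in ORMES-9, 8.52, 8.69 and 8.60 in rPESC-2 and 6.61, 8.09 and 7.68 in ORMES-22, and like that GATA4 probe set it was lowest in ORMES-22 replicate A. AFP was most like APBB1IP (0.875), SLC35G1 (0.805) and MAML2 (0.798), and APOA1 most like SULF2 (0.865), PGPEP1 (0.841) and DAGLB (0.827), at SDs of 0.28 and 0.30. All these correlations describe 9 arrays of 3 lines and were picked as the highest of many.

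**Figure D3:**
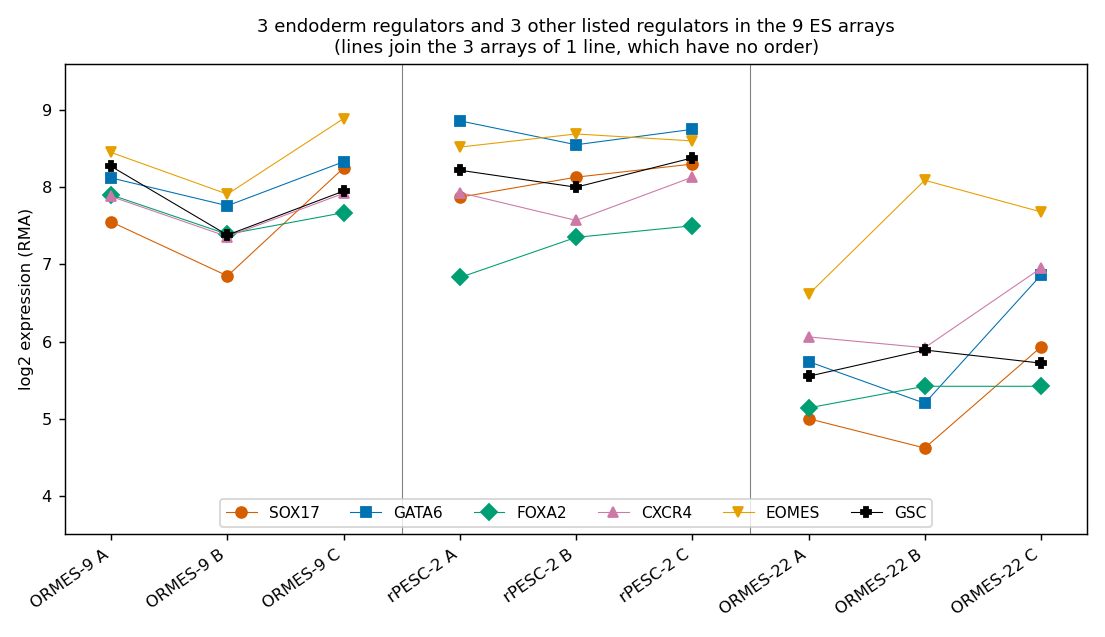
Log2 expression (vertical axis) of SOX17, GATA6, FOXA2, CXCR4, EOMES and GSC on each of the 9 ES arrays (horizontal axis), with thin lines joining the arrays of 1 line, which have no order. Heights of different genes are not comparable. SOX17, GATA6 and CXCR4 share their highest ORMES-22 array, replicate C, while FOXA2 is nearly level across the 3 ORMES-22 arrays.

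Other genes of the endoderm pathway were taken from 3 lists, with 1 probe set per gene, the one with the highest mean. Of 18 other endoderm regulators measured of 23 listed, 3 were called higher and 1 lower in rPESC-2 than in ORMES-22, against 1.02% of 12993 genes higher and 0.685% lower. In ORMES-9 the counts were also 3 higher and 1 lower than in ORMES-22, against 1.38% and 0.916% of genes. The list medians were 0.09 and 0.04, with −0.03 and −0.01 over all genes, and 14 of 18 gave no call in each comparison. Between ORMES-9 and rPESC-2, 0 were higher and 1 lower, against 0.777% and 0.877% of genes.

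GSC, the Goosecoid factor of the organiser and early mesendoderm, gave 8.27, 7.38 and 7.95 in ORMES-9, 8.22, 8.0 and 8.38 in rPESC-2 and 5.55, 5.89 and 5.72 in ORMES-22. It was 4.42-fold higher in ORMES-9 (2.14, SE 0.20, adjusted p = 5.4e-05) and 5.58-fold higher in rPESC-2 (2.48, SE 0.20, adjusted p = 2.7e-05) than in ORMES-22. CXCR4 was 2.66-fold higher in ORMES-9 (1.41, adjusted p = 0.0055) and 2.96-fold higher in rPESC-2 (1.57, adjusted p = 0.0042), and both calls were lost when only the 6 arrays compared were fitted (adjusted p = 0.076 and 0.068). Over all alternatives the adjusted p of CXCR4 ranged from 0.00039 to 0.076 in ORMES-9 and from 0.00036 to 0.068 in rPESC-2.

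CER1, a secreted inhibitor of Nodal made by anterior endoderm, gave 8.30, 6.76 and 7.75 in ORMES-9, 8.95, 8.53 and 8.92 in rPESC-2 and 6.37, 6.81 and 6.60 in ORMES-22. Its array B value in ORMES-9 reached into the ORMES-22 range, where SOX17, FOXA2 and GATA6 of the same array did not. CER1 was called 4.62-fold higher in rPESC-2 than in ORMES-22 (adjusted p = 0.0014), not called in ORMES-9 against ORMES-22 (1.01, adjusted p = 0.075) and called lower in ORMES-9 than in rPESC-2 (−1.19, adjusted p = 0.04). That last call was lost in 11 of 20 alternatives, with adjusted p from 0.0076 to 0.14, and the difference was −0.77 without ORMES-9 replicate B.

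NODAL, the signal that induces mesendoderm, was called in ORMES-9 against ORMES-22 (1.42, adjusted p = 0.03) but lost its call in 8 of 20 alternatives, with adjusted p from 4.4e-05 to 0.2. Its difference was 1.16 without ORMES-22 replicate A (adjusted p = 0.052), and its other probe set differed by 0.37. ONECUT1, a hepatic and pancreatic factor, went the other way. It gave 3.64, 3.90 and 3.96 in ORMES-9, 3.91, 4.14 and 3.96 in rPESC-2 and 4.86, 5.43 and 5.77 in ORMES-22, so that it was over the background level on all ORMES-22 arrays and under it on the 6 parthenogenetic arrays. ONECUT1 was therefore at least 2.14-fold lower in ORMES-9 (adjusted p = 0.00032) and in rPESC-2 (adjusted p = 0.0012). FOXA3, the third member of the FOXA family, differed from ORMES-22 by 0.10 in ORMES-9 and 0.08 in rPESC-2, where FOXA2 differed by 2.33 and 1.89.

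Genes of extraembryonic endoderm, the tissue in which SOX17, GATA4 and GATA6 are first used, were tested in the same way. Of 11 measured of 17 listed, 2 were called higher and 0 lower in rPESC-2 than in ORMES-22 (list median −0.07), where 1.02% of all genes were higher and 0.685% lower. In ORMES-9, 1 was higher and 0 lower than in ORMES-22 (list median −0.12), against 1.38% and 0.916% of all genes. In limma 0 were called between ORMES-9 and rPESC-2, with 2 at an unadjusted p under 0.05. Of all 12993 genes, 0.777% were called higher and 0.877% lower there, and 2830 passed the unadjusted limit. LAMB1, a laminin chain of basement membranes, was higher by 1.08 in rPESC-2 (adjusted p = 0.0037) and by 1.06 in ORMES-9 (adjusted p = 0.0027), with its second probe set at 1.06 and 1.02. RSPO3, a secreted enhancer of WNT signalling, was higher by 1.19 in rPESC-2 (adjusted p = 0.0057). These differences sit at the 2-fold limit, and LAMB1 lost its call in 3 of 20 alternatives for rPESC-2 and 4 for ORMES-9, and RSPO3 in 2. Other genes of this list went the other way without a call. DAB2, named after its values were seen, had means of 7.56 in rPESC-2, 8.14 in ORMES-9 and 8.70 in ORMES-22. Its ORMES-22 arrays were spread widely, at 7.65, 9.08 and 9.38.

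Of 25 other liver plasma protein genes measured of 32 listed, limma called 0 in any of the 3 comparisons between ES lines. In these comparisons 0.777% to 1.38% of all genes were called higher and 0.685% to 0.916% lower. At such shares, 0 of 25 does not set this list apart from other genes. At an unadjusted p under 0.05 ORMES-9 gave 2 against ORMES-22 and 4 against rPESC-2, and rPESC-2 gave 3 against ORMES-22. Of all 12993 genes, 3179, 2830 and 3398 passed that limit in the same order. The list medians were −0.07, 0.00 and −0.04 in that order. SERPINA1, the antitrypsin of plasma and the gene with the largest difference of this list in ORMES-9 against ORMES-22, singled out after its values were seen, differed by 0.81 there (adjusted p = 0.00037), under 2-fold. APOA1, APOA2, AFP and FGA likewise gave no call between ES lines.

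**Figure D4:**
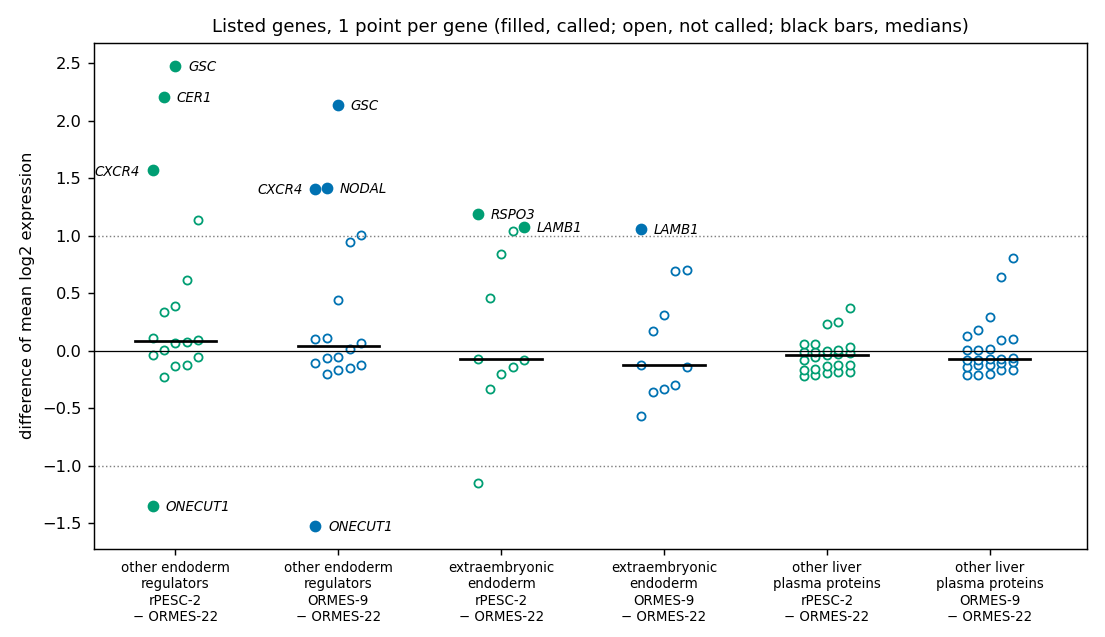
Difference of mean log2 expression (vertical axis) for each gene of the 3 lists in rPESC-2 and ORMES-9 against ORMES-22 (horizontal axis), 1 point per gene, with called genes filled and named and black bars for medians. Medians lie near 0, a few regulators lie beyond the dotted 2-fold lines, and all 25 liver plasma protein genes lie within them.

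Markers of other cells were measured on the same arrays. The summed level of 15 fibroblast genes (log2 of the sum) ranged from 13.05 to 13.41 in ORMES-9, 12.92 to 13.70 in rPESC-2, 14.05 to 14.26 in ORMES-22 and 16.49 to 16.54 in fibroblasts. ORMES-22 thus lay above both parthenogenetic lines, with 3 of 15 called lower in rPESC-2 (LOX, COL6A3 and TWIST1) and 2 lower in ORMES-9 (TWIST1 and LGALS1), the lone TWIST1 call in rPESC-2 being named after its values were seen. Among all genes 0.685% were called lower in rPESC-2 and 0.916% in ORMES-9. The 2 other LOX probe sets differed by −0.40 each in rPESC-2 against ORMES-22 (limma adjusted p = 0.24 and 0.23), where the one used differed by −2.32. LOX lost its call in 4 of 20 alternatives, COL6A3 in 1 and LGALS1 in 5. VIM alone, at 13.07 to 13.61 in ORMES-22, makes up most of the sum there. GATA6 was highest in fibroblasts and lowest in ORMES-22, and its relation to this sum was not tested. Against fibroblasts, 12 of the 15 were called lower in each ES line, but several stayed well above background there. VIM, an intermediate filament protein also used by many other cells, lay between 12.14 and 13.61 on the 9 ES arrays and between 14.35 and 14.47 in fibroblasts. COL1A1, a collagen chain, lay between 10.14 and 11.45 on the ES arrays and between 12.87 and 13.28 in fibroblasts. THY1, a surface protein, overlapped, with 9.0 to 10.33 on the ES arrays and 9.27 to 9.52 in fibroblasts, DCN was higher on the ES arrays (6.82 to 7.43, against 6.56 to 6.75), and LUM was below 4.26 on 8 of 9 ES arrays and between 11.35 and 11.64 in fibroblasts. These 5 were named after their values were seen. Of 12 mesoderm genes, whose sum ranged from 11.04 to 11.86 in ORMES-9, 10.74 to 11.31 in rPESC-2 and 12.75 to 13.26 in ORMES-22, 1 was called lower in both parthenogenetic lines, against 0.916% of all genes in ORMES-9 and 0.685% in rPESC-2. This was ACTC1, cardiac actin, at −2.24 in ORMES-9 and −2.48 in rPESC-2. ACTC1 alone was 12.46 to 12.70 in ORMES-22 and makes up most of the sum there, and the median difference of the list was −0.06 in both comparisons.

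In limma 0 of 12 trophoblast genes and 0 of 5 neuroectoderm genes were called between ES lines. At an unadjusted p under 0.05 there were 1 and 2 in ORMES-9 against ORMES-22, 3 of each in rPESC-2 against ORMES-22 and 1 of each in ORMES-9 against rPESC-2. Of all 12993 genes, 3179, 3398 and 2830 passed that limit in these comparisons. Called higher were 0.777% to 1.38% of all genes, and called lower 0.685% to 0.916%. The sum of trophoblast genes, of which several were highest on the C arrays of ORMES-9 and ORMES-22, ranged from 12.49 to 12.84 in ORMES-9, 12.52 to 12.59 in rPESC-2 and 12.28 to 13.06 in ORMES-22, and neuroectoderm sums from 10.22 to 10.48, 9.53 to 9.90 and 9.80 to 10.55 in the same order. Pluripotency sums ranged from 14.60 to 14.76, 14.61 to 14.79 and 14.44 to 14.71. INSL4, named after its values were seen, makes up most of the trophoblast sum. It lay between 11.59 and 12.51 on the ES arrays and between 12.07 and 12.21 in fibroblasts, so that sum says little about the other trophoblast genes. The pluripotency factors GDF3 and PRDM14 were called higher in ORMES-9 than in ORMES-22 (1.29 and 1.56), GDF3 also in rPESC-2 than in ORMES-22 (1.23), and PRDM14 also in ORMES-9 than in rPESC-2 (1.56). These 4 calls were lost in 1, 3, 3 and 5 of 20 alternatives in that order. Array levels have no true zero, and the part of all these markers in the differences of SOX17, FOXA2 and GATA6 was not tested.

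The comparison with fibroblasts asked how far each ES line stands from a somatic cell. APOA1 rose in all 3 ES lines and was the only one of the 16 probe sets called higher in each of them. It was 13.8-fold higher in ORMES-9 (3.78, SE 0.17, adjusted p = 2.3e-09), 10.3-fold in rPESC-2 (3.37, adjusted p = 6.9e-09) and 11.5-fold in ORMES-22 (3.53, adjusted p = 4.7e-09). In ORMES-9, 6 of 16 probe sets were called higher and 1 lower than in fibroblasts, against 9.41% and 10.5% of all probe sets. In rPESC-2, 5 were higher and 0 lower, against 9.45% and 10.5%, and in ORMES-22, 1 was higher and 1 lower, against 8.04% and 10.8%, a share near that of all probe sets. Median differences of the 16 were 0.37, 0.56 and 0.37 for ORMES-9, rPESC-2 and ORMES-22, with 0.11, 0.09 and 0.13 over all probe sets. The 3 comparisons share the fibroblast arrays. Signs of RNA quality moved with this contrast, as actin 3′ minus 5′ signal was 0.32 to 0.88 on the ES arrays and −0.02 to 0.22 on the fibroblast arrays, and that of GAPDH was 0.79 to 1.01 and 0.68 to 0.78. Their part in the differences was not tested.

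SOX17 was 10.2-fold higher in ORMES-9 and 14.9-fold higher in rPESC-2 than in fibroblasts at its brighter probe set (3.35 and 3.90), which passed the background level on 2 of 3 fibroblast arrays, with a mean of 4.20 there. The dimmer probe set was called as well but was not above background on any fibroblast array, so that it was at least 1.85-fold higher in ORMES-9 and at least 1.81-fold higher in rPESC-2. Such bounds set each array of the lower group to 4.26 where it lay below it. In ORMES-22 the brighter probe set differed by 0.99 (95% interval 0.23 to 1.74, adjusted p = 0.03), just under the 2-fold limit, which it passed in 3 of 19 alternatives, at 1.08 without ORMES-22 replicate A and 1.27 without replicate B. FOXA2 was 7.96-fold higher in ORMES-9, 5.90-fold in rPESC-2 and 1.59-fold in ORMES-22 (0.67, adjusted p = 0.008, not called). The ORMES-22 means were nearer to the fibroblast means than to those of either parthenogenetic line for both genes, which did not hold for every array, since SOX17 was 5.93 on ORMES-22 replicate C.

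GATA6 was 2.46-fold lower in ORMES-9 than in fibroblasts (−1.30, SE 0.31, adjusted p = 0.0041) and 10.8-fold lower in ORMES-22 (−3.44, SE 0.31, adjusted p = 1.6e-06). FOXA1 differed by 0.39, 0.70 and 0.22 in ORMES-9, rPESC-2 and ORMES-22, all under 2-fold, with no fibroblast array above background. The middle GATA4 probe set, above background on 1 of 3 fibroblast arrays, was 3.04-fold higher in ORMES-9 and 2.67-fold higher in rPESC-2, whereas the brightest differed by 0.76, 0.84 and 0.55 in ORMES-9, rPESC-2 and ORMES-22 with adjusted p of at most 0.0027, all under 2-fold. The brightest AFP probe set was called in ORMES-9 (2.22-fold, 1.15) and not in rPESC-2 (0.98) or ORMES-22 (0.76), but the values lie within 0.39 of each other. Without ORMES-9 replicate B it was 0.98 in ORMES-9, and without rPESC-2 replicate A it was 1.05 in rPESC-2, on the other side of the 2-fold limit in each case. APOA2 differed by 0.03, −0.13 and 0.09, with all intervals between −0.40 and 0.35.

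**Figure D5:**
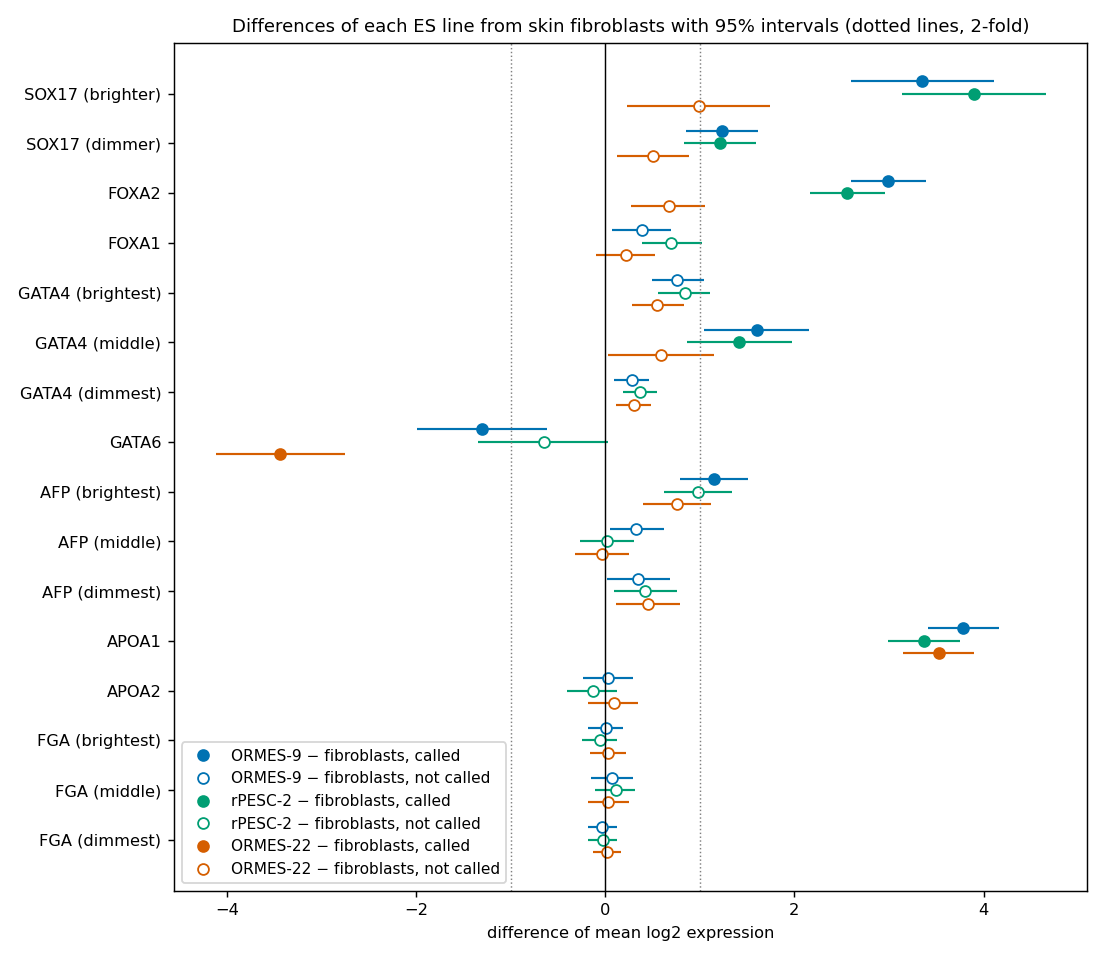
Difference of mean log2 expression (horizontal axis) of each ES line from skin fibroblasts for the 16 probe sets, with 95% intervals from limma, filled where called, and dotted lines at 2-fold. APOA1 lies near 3.5 in all lines, SOX17 and FOXA2 lie beyond 2-fold in ORMES-9 and rPESC-2, and GATA6 lies left of 0 in all lines.

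Among the other endoderm regulators, 8 of 18 were called higher and 1 lower in ORMES-9 than in fibroblasts (16% and 13% of all genes), 8 and 1 in rPESC-2 (15.7% and 13.3%) and 9 and 1 in ORMES-22 (13.9% and 13.5%). The list medians were 0.32, 0.39 and 0.93. ZIC2, a zinc finger factor of early embryos, was higher by 4.22, 4.61 and 4.27 in ORMES-9, rPESC-2 and ORMES-22, FOXA3 by 3.43, 3.41 and 3.33, and EOMES by 3.74, 3.93 and 2.79. FOXA3 was thus called in all ES lines, as APOA1 was, whereas FOXA2 was called in the parthenogenetic lines and reached 0.67 in ORMES-22. The 1 lower regulator was TBX3 in each line, named after its values were seen. A second EOMES probe set gave 0.84, 1.07 and 0.77, called in rPESC-2 only.

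Of the 11 extraembryonic endoderm genes, LAMA1, a laminin chain, was not above background in fibroblasts and was at least 18.6-fold higher in ORMES-9, at least 20.4-fold in rPESC-2 and at least 11.4-fold in ORMES-22. RSPO3 fell by 3.74, 2.86 and 4.05 in the same order and the adaptor DAB2 by 2.97, 3.56 and 2.41 relative to fibroblasts. A second, dimmer LAMA1 probe set near background gave 0.69, 0.70 and 0.53. In all, 1 gene was higher and 2 were lower in ORMES-9 and in rPESC-2, and 1 was higher and 3 were lower in ORMES-22, the third being LAMB1 (−1.17). Among all genes 13.9% to 16% were called higher and 13% to 13.5% lower. RSPO3 and DAB2 were therefore called lower in every ES line than in skin fibroblasts. GATA6 also had its highest mean in fibroblasts, but its difference in rPESC-2 was not called (−0.65, limma adjusted p = 0.1).

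Of the 25 other liver plasma protein genes, 4 were called higher in ORMES-9 than in fibroblasts, 3 in rPESC-2 and 2 in ORMES-22, and 0 lower. As 16%, 15.7% and 13.9% of all genes were called higher in these comparisons, the list was at or below the general share. APOE, a lipid carrier made by many tissues, gave 11.96, 11.90 and 11.61 in ORMES-9, 11.24, 11.40 and 11.09 in rPESC-2, 11.51, 11.07 and 10.95 in ORMES-22 and 5.91, 6.67 and 6.36 in fibroblasts. It was higher by 5.51, 4.93 and 4.87, and its 2 other probe sets were called in every line. SERPING1, the inhibitor of complement C1, was higher by 3.02, 3.09 and 2.84. APOM and F2, named after their values were seen, made up the remaining calls, at 1.12 and 1.04 in ORMES-9 and at 1.36 for APOM in rPESC-2. APOA1 and APOE were thus high in all ES lines, while 21 of these 25 genes in ORMES-9, 22 in rPESC-2 and 23 in ORMES-22, like APOA2 and FGA, gave no call.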

How the data were processed

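Total RNA of 12 cultures was hybridised to Affymetrix rhesus arrays, and the authors deposited 1 table of log2 expression values, made by RMA per the submitters' processing notes (background correction, normalisation between arrays and a summary per probe set are parts of RMA; its software version is not given in the sources used here). Fluorescence per probe was not used here, so the number of arrays limits the precision. The table held 52865 features, of which 99 controls were left out. Of the other 52766 probe sets, the platform annotation gave 24956 a single symbol, 361 several and 27449 none. All 16 probe sets of the 9 genes matched symbols of the reference annotation, used for names alone. No sequence is shown, as none was in the files used here.

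Each group has 3 arrays. Group means were fitted to all 12 arrays with limma 3.58.1 in R 4.3.3 (8 residual and 3.69 prior degrees of freedom), with Benjamini-Hochberg adjustment over all 52766 probe sets. Calls needed an adjusted p under 0.05 and at least a 2-fold difference. The fit was tested on simulated data. Figures used matplotlib 3.10.9. For gene lists, the probe set with the highest mean stood for each of 12993 genes. From the 3 endoderm and liver lists, genes called between ES lines were named, up to 4 per list, direction and comparison, and up to 3 per list among those called in all ES lines against fibroblasts. From lists of other cell types up to 2 called genes were named per comparison between ES lines. The 3 genes most like each of 6 members were named by Pearson correlation. The members and lists were chosen with earlier results of these data known. Alternatives were the samples fitted, the replicate letter as a block, a filter on dim probe sets, scaling, moderation, array weights, thresholds, the probe set per gene and leaving out each array. No 2 arrays held identical values. Where no array of the lower group passed the background level, a fold is given as a lower bound, with each array of that group set to the higher of its own value and that level.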

Additional observations from a re-analysis of the deposited data

How the results depend on the processing

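No difference that was called reversed its direction under the alternatives run. Of 1842 differences of the 16 probe sets under alternatives, 1822 kept their side of the threshold, 14 lost a call and 6 gained one. Most of the 1842 belong to differences not called in the main fit, which had no call to lose. In ORMES-9 minus ORMES-22 the middle GATA4 probe set lost its call 11 times, and SOX17 and GATA6 1 time each. The other loss was of the brightest AFP probe set in ORMES-9 minus fibroblasts. Of 894 differences of named list genes, 842 kept their side and 52 lost a call. When only the 6 arrays compared were fitted, rPESC-2 minus ORMES-22 gave 332 called probe sets in place of 656, and 1 of the 4 called endoderm and liver probe sets remained called in ORMES-9 minus ORMES-22, FOXA2. Array weights gave 1006 for rPESC-2 minus ORMES-22. With no minimum fold the counts were 2536 for rPESC-2 minus ORMES-22, 3158 for ORMES-9 minus ORMES-22 (831 with the 2-fold minimum), 2753 for ORMES-9 minus rPESC-2 (650), 29377 for ORMES-22 minus fibroblasts (9928), 27037 for rPESC-2 minus fibroblasts (10507) and 27734 for ORMES-9 minus fibroblasts (10485). With a 3-fold minimum they were 207, 288, 209, 5507, 5923 and 5887 in that order. Of the 16 probe sets, 9 were then called for ORMES-22 minus fibroblasts (2 with the 2-fold minimum) and 10 for rPESC-2 minus fibroblasts (5) with no minimum fold, and 3 for rPESC-2 minus fibroblasts and 4 for ORMES-9 minus fibroblasts (7) at 3-fold.

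Leaving out 1 array in turn gave 460 to 1493 calls for rPESC-2 minus ORMES-22, 717 to 1284 for ORMES-9 minus ORMES-22, 542 to 714 for ORMES-9 minus rPESC-2, 9656 to 10280 for ORMES-22 minus fibroblasts, 10431 to 10772 for rPESC-2 minus fibroblasts and 10356 to 10537 for ORMES-9 minus fibroblasts. The highest counts against ORMES-22, 1493 and 1284, came without ORMES-22 replicate A. Calls among the 16 probe sets then ranged from 3 to 3, 3 to 4, 0 to 0, 2 to 3, 5 to 6 and 6 to 7 in the same order. Genes called on the endoderm and liver lists for ORMES-9 minus ORMES-22 numbered 5, against 3 without ORMES-22 replicate C (chosen after seeing the data) and 8 with the probe set of largest SD per gene, and for ORMES-9 minus rPESC-2 1, against 0 to 2.

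With the replicate block the counts were 631, 821, 639, 9927, 10503 and 10482, and 3, 4, 0, 2, 5 and 7 of the 16 probe sets were called. The letters were not treated as pairing the arrays, since 18 same-letter pairs correlated between −0.31 and 0.26 in their deviations, 6 of them over 0.1, and 3 of 12 arrays correlated best with their own letter. The highest pairs were ORMES-22 with ORMES-9 at C (0.26) and at A (0.19), with −0.06 at B. The hybridisation controls of these 2 lines also fell from A to C. The labels name no batch, and a link of these arrays by letter was not tested further. Among the differences of the 16 probe sets and of named list genes, the one call changed under the block was CER1 in ORMES-9 minus rPESC-2 (limma adjusted p = 0.051). Signal limits FOXA1, FGA and the dimmest GATA4 probe set, and the filter on dim probe sets left 11 of the 16.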
